A study of Mus musculus with 8 samples.

Results

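The genes described here encode the proteins of the cytosolic ribosome. They were taken by symbol: the letters Rps or Rpl followed by a number and at most 1 letter, together with Rpsa, Rplp0, Rplp1 and Rplp2. Only probe sets annotated with a single gene symbol were used, and the probe set with the highest mean over the 8 arrays stood for its gene. This gave 46 genes of 18193 measured, 22 of the small subunit and 24 of the large subunit. A further 28 symbols that fit the pattern, among them Rplp1, Rpl5 and Rpl24, are carried only by probe sets that list several symbols and have no value here. All 46 genes matched a RefSeq mouse gene by Entrez identifier; 45 are annotated as protein coding and Rps4l as a transcribed pseudogene.

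The ribosome is built from a small subunit, which reads the mRNA, and a large subunit, which joins the amino acids. Nearly every ribosomal protein is needed in equal number per particle, and the genes are scattered over the chromosomes, so cells hold their output in balance mainly through shared promoter features and through translation. Many of the mRNAs begin with a run of pyrimidines (the 5′ terminal oligopyrimidine, or TOP, tract), through which growth signals acting on mTOR set how many of these mRNAs are translated. Hair follicle stem cells at rest are known for a low rate of protein synthesis, which rises when the follicle enters growth. In mice, partial loss of Rps19, Rps20 or Rps6 darkens the skin, and heterozygous loss of Rpl38 shortens the tail.

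Cells were isolated by flow cytometry from the skin of mice with a Runx1 transgene (labelled Runx1 iTG) and of wild-type (WT) mice. Runx1 is a transcription factor of follicle stem cells, and the series set transgenic against wild-type cells. All mice, controls included, ate food with doxycycline at 1 g per kg for 1 day; the labels give repression of H2BGFP as its purpose, and no label names the promoter behind the transgene. All cells carried GFP under keratin 15 and α6-integrin, and the surface protein CD34 divided them into CD34-negative cells labelled hair germ and CD34-positive cells labelled bulge. The 4 groups were Runx1 iTG hair germ, WT hair germ, Runx1 iTG bulge and WT bulge, with 2 arrays each, at postnatal day 20 except replicate 2 of both Runx1 iTG groups, which was day 21. The follicles were in telogen, the resting phase.

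Runx1 and Cd34 followed the labels. The scaled Runx1 signal was 12107 and 12882 in iTG hair germ, 495 and 489 in WT hair germ, 19461 and 13699 in iTG bulge and 658 and 904 in WT bulge. Cd34 lay between 2.42 and 53.2 on the 4 hair germ arrays and between 4902 and 11208 on the 4 bulge arrays. The name hair germ did not hold against its markers. In the comparison averaged over genotypes, 8 of 11 hair germ markers were lower and 0 higher in the CD34-negative cells, by limma at an adjusted p under 0.05, and their summed signal was 3856 to 5012 in iTG hair germ and 4358 to 6397 in WT hair germ, against 28155 to 29680 in iTG bulge and 28170 to 32840 in WT bulge. Tubb3 of that list was below background in all groups. All 6 measured sebaceous markers were higher (summed signal 48037 to 48902 in iTG hair germ and 31368 to 43204 in WT hair germ, against 8246 to 11336 in iTG bulge and 5525 to 5943 in WT bulge). The name hair germ is therefore kept only as the label of the CD34-negative cells. By their Y-linked signals, replicate 1 of every group was male and replicate 2 female, so the spread within each group includes sex. Deposited median intensity was 101.7 to 162 over the 8 arrays, and 69.0% to 77.0% of probe sets lay above background. Background was a signal of 31.1 (log2 4.96), under which lay 95% of the values of 27 bacterial control probe sets, pooled over the 8 arrays.

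The starts of the genes that the comparisons turn on are shown first, to let the pyrimidine run be seen beside the values. Each line is RefSeq sequence on GRCm38.p6, 5′ to 3′ on the gene's strand, with the 60 bases before the annotated start and the first 15 transcribed bases; capitals mark the longest run of C or T within the stretch from 20 bases before to 15 after the start. Where sequence was at hand for several annotated starts (3 in Rps19, 2 in Rpl3l), the most upstream of them is shown. The RefSeq spans of Rpl38 and Rps9 begin further upstream, at 114667818 and 3703954, than the starts shown, at 114668580 and 3704041. The windows are chr9:120571457-120571531 (plus strand) for Rpl14, chr7:24884532-24884606 (plus) for Rps19, chrX:37085208-37085282 (minus) for Rpl39, chr17:24727766-24727840 (plus) for Rpl3l, chr5:115559407-115559481 (plus) for Rplp0, chr11:114668520-114668594 (plus) for Rpl38 and chr7:3703981-3704055 (plus) for Rps9.
Rpl14: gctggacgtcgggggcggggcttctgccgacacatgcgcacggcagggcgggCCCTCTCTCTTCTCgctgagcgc
Rps19: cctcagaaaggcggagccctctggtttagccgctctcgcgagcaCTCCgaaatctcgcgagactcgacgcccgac
Rpl39: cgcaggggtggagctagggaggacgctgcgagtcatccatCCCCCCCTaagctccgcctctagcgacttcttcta
Rpl3l: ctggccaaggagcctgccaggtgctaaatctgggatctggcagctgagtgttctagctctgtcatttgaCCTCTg
Rplp0: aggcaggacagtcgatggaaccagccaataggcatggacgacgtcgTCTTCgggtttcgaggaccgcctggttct
Rpl38: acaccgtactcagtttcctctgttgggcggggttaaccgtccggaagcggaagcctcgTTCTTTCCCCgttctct
Rps9: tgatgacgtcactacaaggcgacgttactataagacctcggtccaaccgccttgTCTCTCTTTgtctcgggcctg

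A promoter window of 250 bases before and 50 after the start was at hand for 40 of the 46 genes. A run of 8 or more C or T from 20 bases before to 15 after the start was found at any start with a window in 19 of the 40 (47.5%), against 16.5% of 17492 protein-coding genes with a window. The count includes runs that end before the annotated start and are not transcribed from it, so it is not a count of TOP tracts. The run covered 14 bases in Rpl14, 10 in Rpl38, 9 in Rps9 and 8 in Rpl39, where it lay wholly before the annotated start. At the starts shown it was shorter than 8 in Rps19, Rpl3l and Rplp0, which does not show that their mRNAs lack a TOP tract. The longest run at any start of Rps19 was 7 bases. Of 4 short words searched on both strands, CCGGAAG, which ETS factors bind, was in 20 of 40 windows (50%), against 12.9% of all genes. The YY1 word AAGATGG was in 7 (17.5%, against 7.18%), and the E-box CACGTG, bound by Myc, in 4 (10%, against 8.91%). The word TGTGGT, the core that Runx factors bind, was in 3 windows (7.5%), those of Rpl6, Rps2 and Rps25, against 17.2% of all genes. No matches of different words overlapped in these windows, and a match of letters is a description, not a bound site.

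The ribosomal protein probe sets were among the brightest on every array. For 33 of the 46 genes the mean log2 signal over the 8 arrays lay above the 99th percentile of all probe sets (for 31 of them on each array), and 42 were above background on all 8 arrays. Median log2 signal over the 46 genes was 13.92 and 14.24 in iTG hair germ, 14.04 and 14.09 in WT hair germ, 14.04 and 13.80 in iTG bulge and 14 and 13.62 in WT bulge (replicates 1 and 2). WT hair germ lay above WT bulge, iTG hair germ overlapped iTG bulge, and iTG overlapped WT in both populations. The pooled SD of these medians within a group was 0.195. Since a probe set's brightness depends on its own sequence, the order of the genes by brightness says nothing of their mRNA. The probe sets that stand for Rps16 and Rpl37 are poor gauges: Rps16's was below background on all 8 arrays, and Rpl37's log2 signal ran from 4.02 to 6.47, although both genes also appear on brighter probe sets that list several symbols. Letting in such probe sets, a setting chosen after seeing the data, gave 11 of the 46 genes another, brighter probe set. Then 41 genes, not 33, had a mean above the 99th percentile, so being less bright can rest on the probe set rule.

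**Figure D1:**
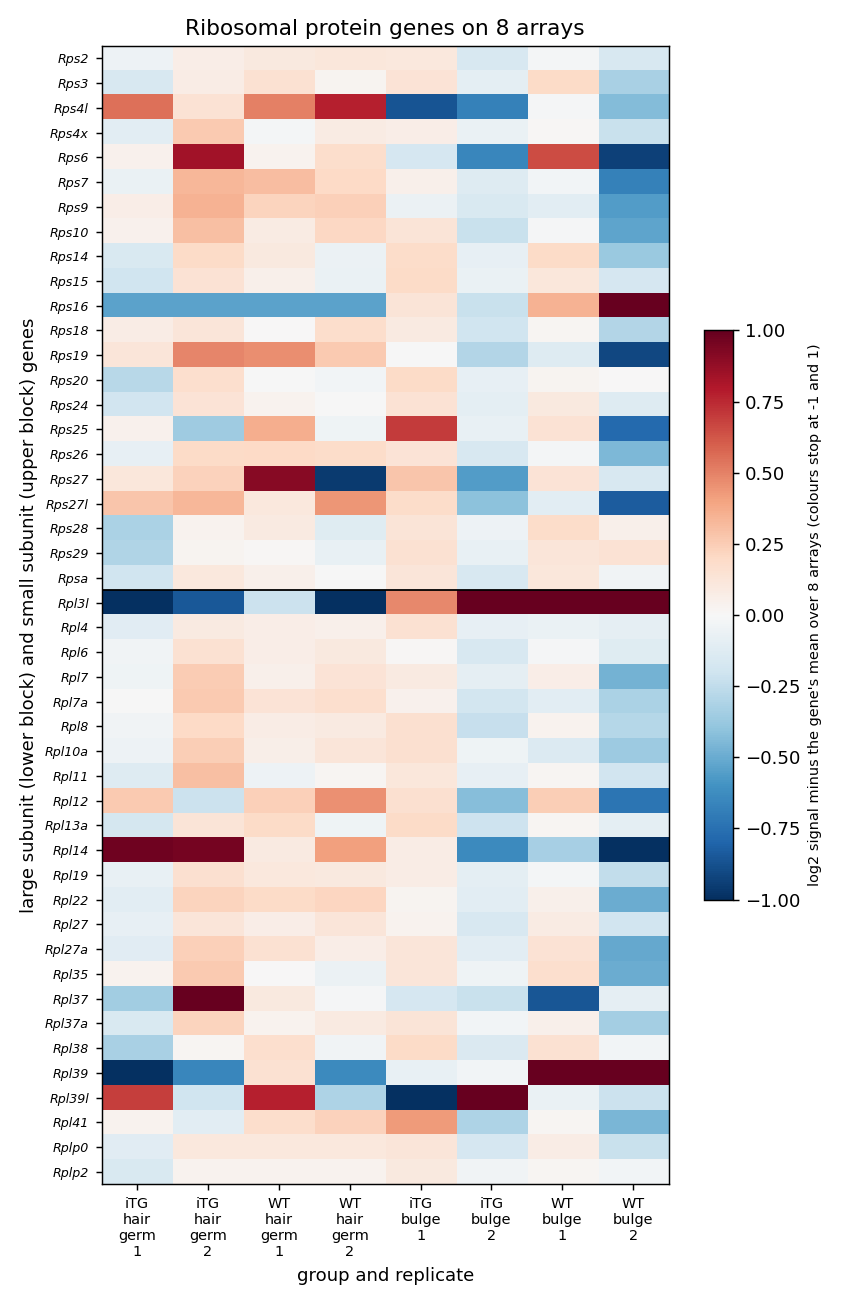
Log2 signal of the 46 ribosomal protein genes (rows, small subunit above the line and large subunit below it) on the 8 arrays (columns), minus each gene's mean; red is above and blue below that mean, and colours stop at -1 and 1. Most rows are pale throughout. Rps4l, Rps19 and Rpl3l divide the hair germ from the bulge columns, and Rpl39 does so within each genotype. Rpl14 divides them too, except that iTG bulge replicate 1 lies slightly above the gene's mean. Replicate 2 of both bulge groups is blue in most rows.

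The first question was whether Runx1 iTG cells differ from WT cells in these genes. In bulge, no ribosomal protein gene passed the test: 0 of 46 passed limma at an adjusted p under 0.05, where 0.022% of all genes did, and 1 of 46 had an unadjusted p under 0.05, where 5.96% of all genes did. The median log2 difference, iTG minus WT, was 0.095 over the 46 genes and 0.023 over all genes. Single arrays turned its sign: it was -0.066 without WT bulge replicate 2 and -0.034 without iTG bulge replicate 1, and up to 0.234 without WT bulge replicate 1. In hair germ, 0 of 46 passed (0.0275% of all genes) and 0 had an unadjusted p under 0.05 (6.78% of all genes), with a median of -0.039 against 0.030 over all genes. That median was 0.075 without iTG hair germ replicate 1 and -0.170 without iTG hair germ replicate 2. Averaged over both populations, 0 of 46 passed (0.0495% of all genes), 2 had an unadjusted p under 0.05 (8% of all genes), and the median was 0.032 against 0.028 over all genes (-0.055 without WT bulge replicate 2 to 0.118 without WT bulge replicate 1). The arrays are scaled to each other, so these values are shares of the measured mRNA. In such bulk samples fewer cells of a type and less RNA per cell cannot be told apart.

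Intervals were narrow for the brighter genes. The 95% interval of the averaged iTG minus WT difference lay within 1 log2 unit of 0 for 39 of the 46 genes and within 0.5 for 30, against 7755 and 1354 of the 18193 genes. All genes include many dimmer ones, and genes of like brightness were not compared. All 33 brighter genes lay within 1 unit in bulge, in hair germ and on average, and their averaged differences ran from -0.13 for Rpl38 to 0.19 for Rpl35. For the remaining 13 genes the averaged difference ran from -0.91 to 0.69, and only 6 of them had an interval within 1 unit. The highest deposited signal among the 46 genes was 26983 to 39569 per array, where array maxima were 35816 to 64079. Whether signals near the top of the scale understate differences was not tested.

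The stalk proteins, which draw the translation factors to the large subunit, show how close the groups were. Rplp0 had log2 signals of 14.06 and 14.27 in iTG hair germ, 14.27 and 14.28 in WT hair germ, 14.29 and 14 in iTG bulge and 14.24 and 13.95 in WT bulge. Rplp2 had 14.28 and 14.47 in iTG hair germ, 14.47 and 14.47 in WT hair germ, 14.53 and 14.40 in iTG bulge and 14.46 and 14.41 in WT bulge. In bulge the iTG and WT arrays overlapped in both genes, and in hair germ both iTG arrays lay under both WT arrays, replicate 2 by very little. The averaged iTG minus WT log2 difference was -0.03 for Rplp0 (95% interval -0.37 to 0.31) and -0.03 for Rplp2 (-0.34 to 0.28).

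The gene with the smallest p in each Runx1 comparison was Rpl39, which encodes a small protein lining the exit tunnel of the large subunit. Its log2 signal was 8.15 and 8.56 in iTG hair germ and 9.37 and 8.58 in WT hair germ, and 9.14 and 9.18 in iTG bulge and 10.24 and 10.49 in WT bulge. The iTG arrays lay below the WT arrays in both populations, in hair germ by very little between the nearest arrays. The log2 difference was -0.62 ± 0.33 in hair germ (SE, limma adjusted p = 0.825), -1.20 ± 0.33 in bulge (0.669) and -0.91 ± 0.24 on average (0.286), so it did not pass in any of these comparisons. A brighter probe set that lists Rpl39 beside other symbols gave an averaged difference of 0.04, so the size rests on the single probe set of its own.

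Rpl14, a large subunit protein, came next in hair germ and on average, and after Rps25 in bulge. Its log2 signal was 11.09 and 11.08 in iTG hair germ and 10.21 and 10.53 in WT hair germ, and 10.20 and 9.48 in iTG bulge and 9.79 and 8.57 in WT bulge. The groups were apart in hair germ and overlapped in bulge. The log2 difference was 0.72 ± 0.39 in hair germ (adjusted p = 0.83), 0.66 ± 0.39 in bulge (0.911) and 0.69 ± 0.28 on average (0.571). With probe sets that list several symbols let in, the hair germ difference turned to -0.046, so its size rests on the single probe set of its own.

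The other genes with the smallest p did not pass either. Rps25, a small subunit protein, had log2 signals of 10.95 and 10.17 in iTG bulge against 10.39 and 9.47 in WT bulge, a difference of 0.63 ± 0.37 (adjusted p = 0.911). Rpl10a had 14.62 and 14.42 in iTG bulge against 14.33 and 14.10 in WT bulge, a difference of 0.31 ± 0.21 (0.926). The Rps25 arrays overlapped, and the Rpl10a arrays did not. In hair germ, Rpl38 had 14.53 and 14.87 in iTG against 15.02 and 14.82 in WT, a difference of -0.22 ± 0.23 (0.955). Rpl41, the smallest of the proteins, had 12.47 and 12.33 in iTG hair germ against 12.61 and 12.67 in WT hair germ, a difference of -0.24 ± 0.27 (0.961), and its other probe sets turn that sign. On average over both populations, Rps4l followed with -0.42 ± 0.28 (0.782) and Rpl35 with 0.19 ± 0.18 (0.831).

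**Figure D2:**
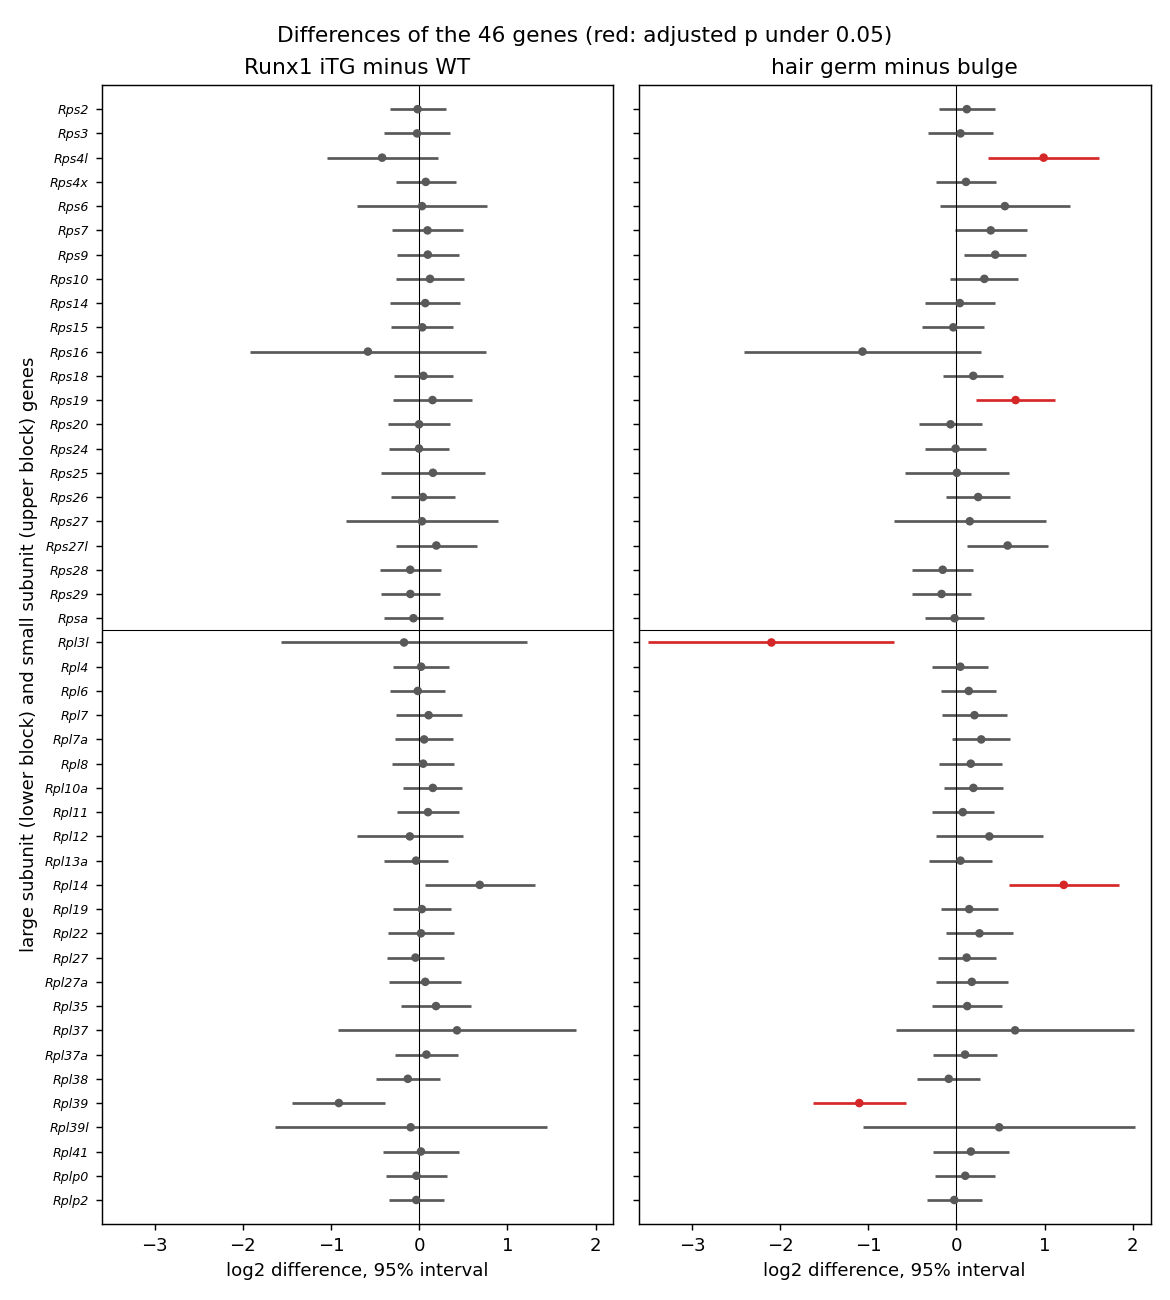
Log2 difference with its 95% interval for each of the 46 genes, iTG minus WT averaged over both populations (left panel) and hair germ minus bulge averaged over both genotypes (right panel); red marks an adjusted p under 0.05. No gene is red on the left, and on the right Rpl14, Rps4l and Rps19 lie above 0 and Rpl39 and Rpl3l below it.

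The effect of the transgene was also set against itself between the populations (the interaction, iTG minus WT in hair germ less iTG minus WT in bulge). No ribosomal protein gene passed: 0 of 46 by limma, as did 0% of all genes, and 0 of 46 had an unadjusted p under 0.05, where 4.61% of all genes did. The median was -0.13 over the 46 genes and -0.010 over all genes. It was 0.038 without WT bulge replicate 2 and -0.275 without iTG bulge replicate 2, so its sign rests on single arrays. Of the 33 brighter genes, which ran from -0.44 to 0.01, 32 were negative, where 9193 of all 18193 genes were. The closest to passing was Rps25, whose log2 signal was 10.29 and 9.89 in iTG hair germ, 10.61 and 10.20 in WT hair germ, 10.95 and 10.17 in iTG bulge and 10.39 and 9.47 in WT bulge, an interaction of -0.95 ± 0.53 (adjusted p = 1). Its iTG arrays averaged lower than the WT arrays in hair germ and higher in bulge. Rpl41 (-0.52 ± 0.39), Rpl39 (0.59 ± 0.47) and Rps7 (-0.44 ± 0.36) followed, each with an adjusted p of 1.

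The shared sign of the brighter genes runs along the replicates as well. Over all genes, replicate 2 was higher than replicate 1 in 48.9% in iTG bulge, 48.2% in WT bulge, 56.9% in iTG hair germ and 48.7% in WT hair germ. In the brighter genes, replicate 2 was lower than replicate 1 in 33 of 33 in iTG bulge (median -0.23) and in 32 of 33 in WT bulge (median -0.28). It was higher in 33 of 33 in iTG hair germ (median 0.30), while WT hair germ divided into 15 higher and 18 lower (median -0.013). These counts depend on the scaling: after quantile normalization, replicate 2 was higher in 21 and lower in 11 in iTG hair germ, 21 and 11 in WT hair germ, 17 and 15 in iTG bulge and 6 and 27 in WT bulge. Replicate 2 also differs from replicate 1 in sex, and in iTG by 1 day of age; the part of either in these shifts was not tested.

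The second question was how the CD34-negative cells labelled hair germ differ from bulge cells in these genes. In WT, 1 of 46 passed limma, where 6.93% of all genes did: Rpl39 fell, as did 3.79% of all genes. Another 6 had an unadjusted p under 0.05 without passing (7 in all, where 21.1% of all genes did). In Runx1 iTG, 0 of 46 passed (9.76% of all genes) and 3 had an unadjusted p under 0.05 (23% of all genes). With both genotypes averaged, Rpl14, Rps4l and Rps19 rose and Rpl39 and Rpl3l fell, 5 of 46 genes, where 18.3% of all genes passed (9.17% higher and 9.11% lower). Of all genes that passed, 50.2% were higher, and 69.8% with arrays scaled to a common median, where 5 of the 46 were higher and 1 lower. The median log2 difference, hair germ minus bulge, was 0.201 in WT, 0.063 in iTG and 0.131 averaged, against -0.081, -0.063 and -0.091 over all genes. With 1 array left out it ran from 0.030 (without WT bulge replicate 2) to 0.376 (without WT bulge replicate 1) in WT and from 0.048 to 0.213 averaged, without the same arrays. In iTG its sign turned, to -0.081 without iTG bulge replicate 2 and -0.078 without iTG hair germ replicate 2, and it reached 0.176 without iTG hair germ replicate 1.

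By subunit, the averaged comparison gave 2 of 22 small subunit genes higher and 0 lower, with a median of 0.113, and 1 of 24 large subunit genes higher and 2 lower, with a median of 0.142. Over all genes 9.17% were higher and 9.11% lower. Of the 33 brighter genes, only Rps19 passed, and their differences ran from -0.17 for Rps29 to 0.67 for Rps19. For 32 of these 33 the 95% interval lay within 1 log2 unit of 0. The other 4 calls came from the 13 genes whose chosen probe set was less bright, which can depend on the probe set rule. Here too, whether the brightest signals understate differences was not tested.

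Bulge and hair germ samples of a genotype may come from the same mice, which the sources used here do not give, so the averaged comparison may not rest on independent samples. Leaving out an array weakens the test for every gene, so a lower count need not be particular to these genes. The count of the averaged comparison moved with single arrays. It was 1 without WT bulge replicate 2 (Rpl14), without WT hair germ replicate 2, without iTG bulge replicate 2 and without iTG hair germ replicate 1 (Rpl39 each time). It was 2 without iTG bulge replicate 1 or iTG hair germ replicate 2 (Rpl14 and Rpl39), 3 without WT hair germ replicate 1 (Rpl14, Rpl39 and Rpl3l) and 5 without WT bulge replicate 1, of which Rpl14, Rpl39 and Rps19 were shared with the full set. The Gapdh probe sets at the 3′ and 5′ ends of the mRNA differed by a log2 value of 0.92 to 1.23 on the hair germ arrays and 1.20 to 1.52 on the bulge arrays; the part of RNA quality in the calls was not tested.

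Rpl14 was higher in hair germ cells, averaged over genotypes. With the log2 signals given above, its lowest hair germ array (10.21, WT) lay just over its highest bulge array (10.20, iTG), and the groups did not overlap within either genotype. The log2 difference was 1.25 ± 0.39 in iTG (adjusted p = 0.0802), 1.19 ± 0.39 in WT (0.111) and 1.22 ± 0.28 averaged (0.0136), a fold of 2.32. The 5 brighter probe sets that list Rpl14 beside other symbols gave averaged differences of 0.11 to 0.34, and none passed.

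Rps4l, a transcribed copy of the small subunit gene Rps4x, was also higher. Its log2 signal was 8.39 and 7.98 in iTG hair germ and 6.97 and 7.16 in iTG bulge, and 8.34 and 8.61 in WT hair germ and 7.82 and 7.40 in WT bulge. Every hair germ array lay above every bulge array. The difference was 1.12 ± 0.40 in iTG (adjusted p = 0.12), 0.86 ± 0.40 in WT (0.257) and 0.99 ± 0.28 averaged (0.0363). The averaged call was lost on leaving out any one of the 8 arrays. Rps4x itself did not pass, with 13.89 and 14.25 in iTG hair germ, 13.98 and 14.08 in WT hair germ, 14.06 and 13.93 in iTG bulge and 14 and 13.77 in WT bulge, an averaged difference of 0.11 ± 0.15 (0.695).

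Rps19, a small subunit protein whose human gene is the one most often mutated in Diamond-Blackfan anaemia, was the third that rose. Its log2 signal was 13.45 and 13.81 in iTG hair germ and 13.32 and 13.03 in iTG bulge, and 13.80 and 13.59 in WT hair germ and 13.20 and 12.42 in WT bulge. All hair germ arrays lay above all bulge arrays, and WT bulge replicate 2 was the lowest. The difference was 0.46 ± 0.28 in iTG (adjusted p = 0.389), 0.89 ± 0.28 in WT (0.0973) and 0.67 ± 0.20 averaged (0.0422). The averaged call held without WT bulge replicate 1 and was lost on leaving out any other array. Counting the other settings, 11 of 18 alternatives lost it.

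Rpl39 was lower in hair germ cells, in WT and on average. With the values given above, the hair germ arrays lay below the bulge arrays within each genotype, although WT hair germ replicate 1 (9.37) lay above both iTG bulge arrays. The log2 difference was -0.81 ± 0.33 in iTG (adjusted p = 0.177), -1.39 ± 0.33 in WT (0.0354) and -1.10 ± 0.24 averaged (0.0098). The call in WT was lost on leaving out any one of the 4 bulge arrays, iTG or WT, or WT hair germ replicate 2. The brighter probe set that lists Rpl39 with other symbols had log2 signals of 14.55 and 15.07 in iTG hair germ, 14.96 and 14.73 in WT hair germ, 14.96 and 14.69 in iTG bulge and 14.87 and 14.54 in WT bulge, an averaged difference of 0.06 (adjusted p = 0.881 over all probe sets). Its groups overlapped.

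Rpl3l, a copy of Rpl3 known from heart and skeletal muscle, was the other gene that fell. Its log2 signal was 2.73 and 3.02 in iTG hair germ and 4.35 and 5.04 in iTG bulge, and 3.66 and 1.87 in WT hair germ and 5.20 and 5.08 in WT bulge. All hair germ arrays were below background, as was iTG bulge replicate 1, and the bulge arrays above background were barely so. The fitted averaged difference was -2.10 ± 0.62 (adjusted p = 0.0429), but against background the data bound it only as at least 1.13-fold lower in WT hair germ than in WT bulge, with no bound in iTG. The averaged call held without WT hair germ replicate 1 and was lost on leaving out any other array. Counting the other settings, 11 of 18 alternatives lost it, among them scaling to a common median and quantile normalization.

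**Figure D3:**
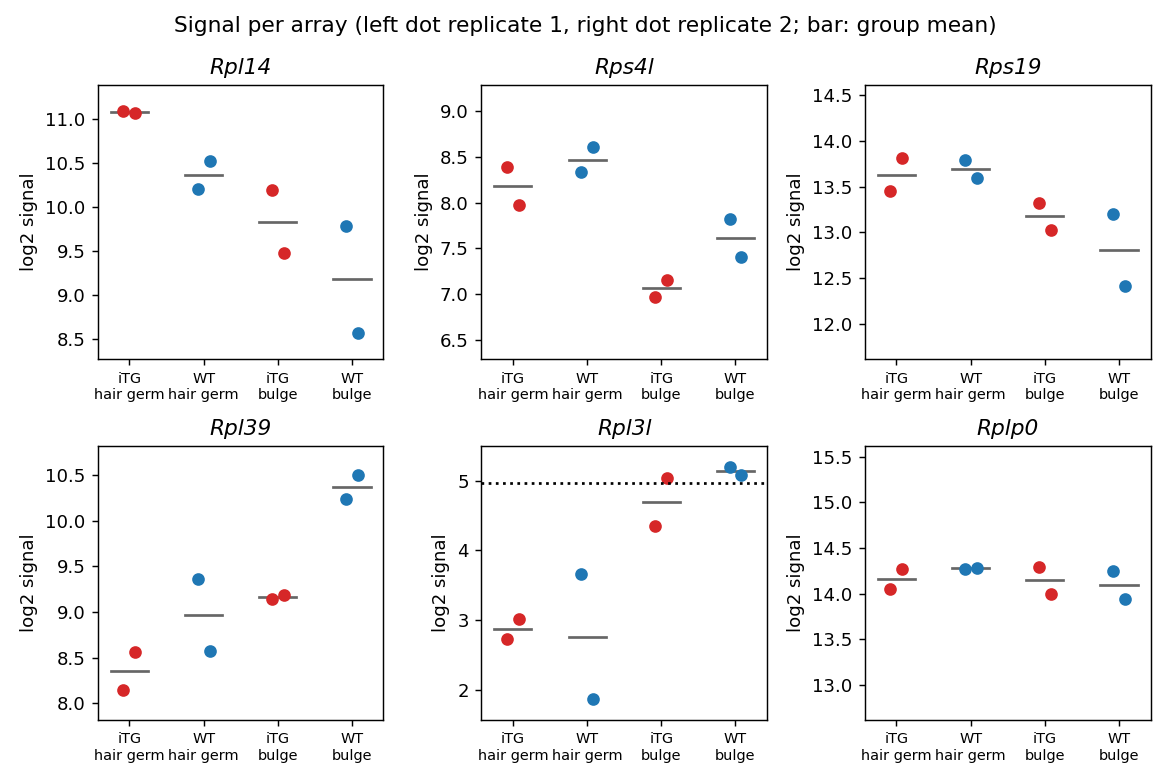
Log2 signal on each array for the 5 genes that passed in hair germ minus bulge and for Rplp0, by group (red iTG, blue WT; left dot replicate 1, right dot replicate 2, bar the mean of 2); each panel has its own log2 range and the dotted line is background. Rps4l and Rps19 are higher on every hair germ array than on any bulge array, Rpl3l sits at or under background, and Rplp0 spans 13.95 to 14.29 over all groups.

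Of the copies of ribosomal protein genes, Rps27l, which p53 induces, had log2 signals of 13.15 and 13.20 in iTG hair germ, 12.97 and 13.31 in WT hair germ, 13.06 and 12.46 in iTG bulge and 12.76 and 12.04 in WT bulge. Its averaged hair germ minus bulge difference of 0.58 ± 0.21 did not pass (adjusted p = 0.083), and iTG bulge replicate 1 lay among the hair germ values. The related Rps27 had 9.0 and 9.12 in iTG hair germ, 9.80 and 7.93 in WT hair germ, 9.17 and 8.33 in iTG bulge and 9.03 and 8.73 in WT bulge. With 0.15 ± 0.39 (0.843), that gene was too scattered in WT hair germ to place. Rpl39l, a copy of Rpl39 known from testis, had 5.81 and 4.93 in iTG hair germ, 5.90 and 4.81 in WT hair germ, 3.42 and 6.14 in iTG bulge and 5.05 and 4.91 in WT bulge, a difference of 0.48 ± 0.69 (0.698). It lay near background.

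Genes with known roles in skin or in the p53 response to a failing ribosome were measured for 10 of 13 listed. In hair germ minus bulge, averaged, 1 of 10 was higher (Rps19) and 0 lower, about the share of all genes (9.17% higher and 9.11% lower), with a median of 0.123. Rps20, which darkens mouse skin when mutated, had log2 signals of 14.47 and 14.91 in iTG hair germ, 14.74 and 14.72 in WT hair germ, 14.93 and 14.66 in iTG bulge and 14.77 and 14.75 in WT bulge. Its iTG groups overlapped and WT hair germ lay slightly below WT bulge, with a difference of -0.07 ± 0.16 (adjusted p = 0.827). Rps6, the protein that S6 kinases phosphorylate, had 10.62 and 11.41 in iTG hair germ, 10.61 and 10.75 in WT hair germ, 10.41 and 9.93 in iTG bulge and 11.23 and 9.64 in WT bulge, a difference of 0.55 ± 0.33 (0.301). WT bulge held both its lowest array and its second highest. Rpl11, which binds Mdm2 when ribosome assembly fails, differed by 0.07 ± 0.16 (0.813) and Rpsa, also known as a laminin receptor, by -0.02 ± 0.15 (0.944). In iTG minus WT, averaged, 0 of 10 passed limma, 0 had an unadjusted p under 0.05, and the median was 0.051.

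Where a gene had several probe sets of its own, they could disagree. Among all 100 single-symbol probe sets of these genes, 4 were higher and 1 lower in hair germ than in bulge, averaged, and among the 110 that list several symbols 6 were higher and 0 lower, where 14% of all 45037 probe sets passed. Rps7 had a difference of 0.39 (adjusted p = 0.215 over all probe sets) on its brighter probe set and 0.84 (0.00956) on the other. Rpl13a had 0.05 (0.897) on its brightest and 0.67 (0.0363) on another. For iTG minus WT, averaged, 0 of the 100 and 0 of the 110 passed limma, where 0.0377% of all probe sets did.

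One probe set, chosen after its values were seen, stood apart from every other reading of its gene. Rps9, a small subunit protein, has 3 probe sets. The brightest, which stands for the gene, had log2 signals of 13.92 and 14.20 in iTG hair germ, 14.08 and 14.10 in WT hair germ, 13.80 and 13.70 in iTG bulge and 13.75 and 13.30 in WT bulge. The dimmest ran from 7.26 to 8.74 over the 8 arrays. The middle one had 13.88 and 10.77 in iTG hair germ, 10.75 and 14.01 in WT hair germ, 13.98 and 10.03 in iTG bulge and 9.85 and 13.44 in WT bulge. It was high on replicate 1 of both iTG populations and on replicate 2 of both WT populations and low on the other 4 arrays, so bulge and hair germ arrays of the same genotype and number always fell on the same side. The cause was not tested.

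**Figure D4:**
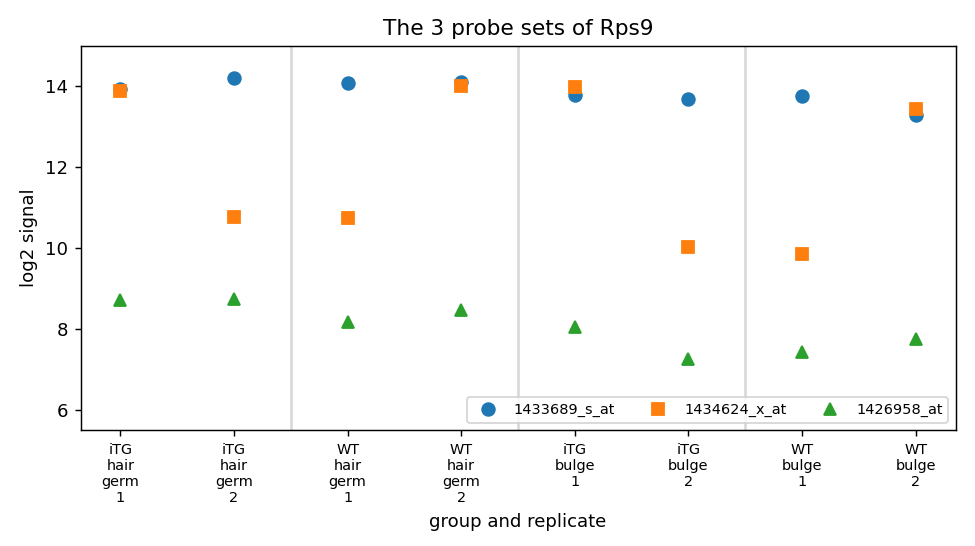
Log2 signal of the 3 probe sets of Rps9 on the 8 arrays, by group and replicate. The middle probe set (squares) takes values near 14 on 4 arrays and between 9.85 and 10.77 on the other 4, while the brightest (circles) stays between 13.30 and 14.20.

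Lists of genes that make and use ribosomes were set beside the ribosomal proteins. In hair germ minus bulge, averaged, where 9.17% of all genes were higher and 9.11% lower, 43 of 76 mitochondrial ribosomal protein genes were higher and 0 lower, with a median of 0.71 (29 to 53 higher under other scalings). Mrps15 (1.14, adjusted p = 0.00099), Mrpl17 (1.06, 0.00114) and Mrpl12 (1.55, 0.00178) had the smallest p. Of 35 ribosome assembly genes, 14 were higher and 0 lower, with a median of 0.52 (11 to 20 higher under other scalings). They include Nhp2 (1.48, 0.00167) and Gar1 (1.09, 0.00385), which belong to the particles that turn uridines of rRNA into pseudouridine, and Utp20 (0.93, 0.00591), which helps to cut the small subunit's rRNA. Whether their shares differ from that of the cytosolic ribosomal proteins was not tested.

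Of 13 genes of RNA polymerase I, which makes rRNA, 4 were higher and 0 lower in that comparison (9.17% and 9.11% of all genes), with a median of 0.53 and 2 to 6 higher under other scalings, among them Polr1a (0.98, adjusted p = 0.024) and Rrn3 (0.73, 0.025). Of 20 translation initiation genes, 6 were higher and 0 lower, with a median of 0.36 (5 to 9 higher under other scalings). Eif4ebp1 (1.62, 0.000208) and Eif4ebp2 (0.88, 0.00407), which hold back the cap-binding factor until mTOR phosphorylates them, led that list, followed by Eif1a (1.26, 0.0107). Of 13 other mRNAs known for a TOP tract, Pabpc1 (0.83, 0.00395) and Hnrnpa1 (0.71, 0.00609) were higher and Vim (-2.08, 0.00511) was lower, with a median of 0.28 and 2 to 5 higher under other scalings. Vim is also a marker of fibroblasts. Their summed markers were 1301 to 1949 in iTG hair germ and 1021 to 1520 in WT hair germ, against 15450 to 17103 in iTG bulge and 12009 to 13410 in WT bulge. Of these 9 markers, 5 were lower in hair germ. Col3a1, Lum and Twist2 were below background in hair germ, but so was Lum in both bulge groups and Twist2 in WT bulge. The part of fibroblasts in the Vim value was not tested.

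Of 16 regulators of ribosomal protein genes, Myc, which drives ribosome production, was higher (0.93, adjusted p = 0.003), and its antagonist Mxd4 (-1.30, 0.000421) and the mTOR inhibitor Tsc1 (-0.99, 0.043) were lower, against 9.17% higher and 9.11% lower of all genes. The median of that list was -0.27, negative in 12 of 16. Its counts turned to 3 higher and 1 lower with arrays scaled to a common median, where its median was 0.032, and to 1 and 1 after quantile normalization. In the cell cycle list, 12 of 13 genes were higher and 0 lower, with a median of 1.85 (10 to 13 higher under other scalings). In iTG minus WT, averaged, 0 genes of any of these 7 lists passed limma; the counts with an unadjusted p under 0.05 were 6 of 76 mitochondrial ribosomal proteins, 1 of 20 initiation genes and 0 in the others, where 8% of all genes had one. The mitochondrial ribosomal proteins had a median of 0.19, positive in 66 of 76 (9623 of all 18193 genes), without passing.

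**Figure D5:**
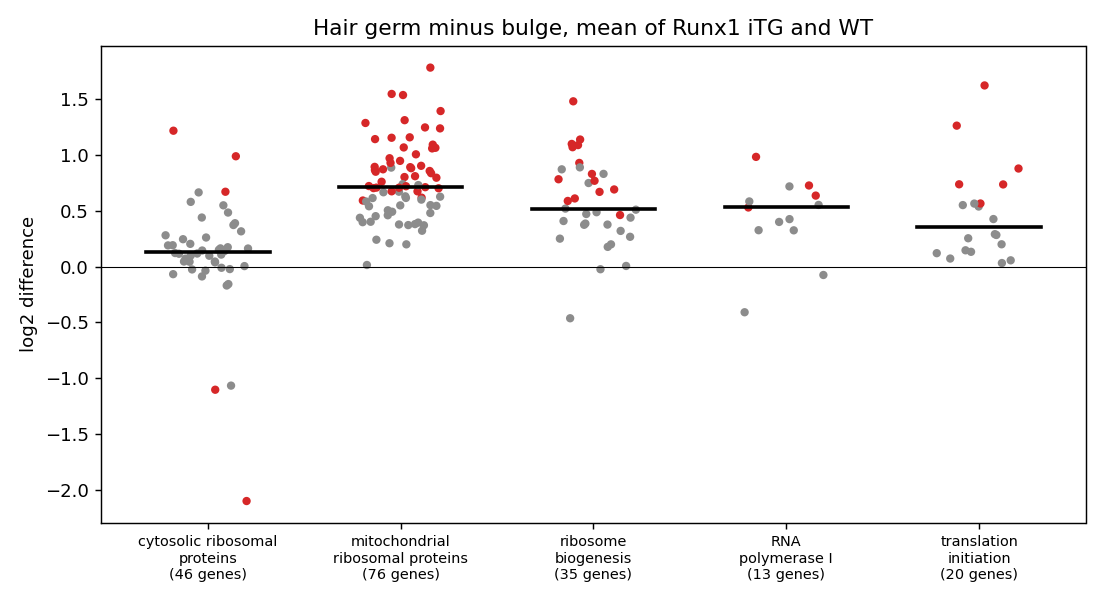
Hair germ minus bulge log2 difference, mean of both genotypes, for each gene of 5 lists (grey not passing, red adjusted p under 0.05, bar the median of the list; horizontal scatter has no meaning). The medians are 0.13 for the cytosolic ribosomal proteins, 0.71 for the mitochondrial ones, 0.52 for assembly, 0.53 for RNA polymerase I and 0.36 for initiation.

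Genes that respond to cell dissociation, which can rise during sorting, had no calls between genotypes either. Averaged iTG minus WT was positive in 16 of 16 (9623 of all 18193 genes), with a median of 0.68. By limma, 9 had an unadjusted p under 0.05 (8% of all genes), and 0 passed (0.0495% of all genes). In hair germ minus bulge, 6 of these 16 were higher and 1 lower, against 9.17% and 9.11% of all genes. Their part in the ribosomal protein values was not tested.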

How the data were processed

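RNA of 8 sorted samples was hybridised to Affymetrix arrays, 1 array each. Per the labels' protocols, 5 ng of total RNA was amplified and biotin-labelled with NuGEN kits. The deposited values are the authors' intensity per probe set on a linear scale. From the values, the mean of every array without its top and bottom 2% is 500. No label or header names the summarising program.

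After removal of 64 control probe sets, each array was scaled so that all share one 75th percentile, a floor of 2.42 was set, and signals were turned into log2. Gene names come from the platform annotation. The 4 group means were estimated for all 18193 genes by limma 3.58.1 (R 4.3.3; eBayes with trend), and two-sided p-values were adjusted over all genes by Benjamini-Hochberg, threshold 0.05. Every adjusted p is from this fit unless a probe-set fit is named, and ± gives standard errors. Residual degrees of freedom were 4 (9.87 in all after moderation). The labels call the replicates biological; with 2 per group, their number limits the precision.

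The genes, lists and tests were chosen with earlier results of these data known. Members named with all samples are those with the smallest p in each comparison, those that passed, the stalk genes, the copies and those with a background role in skin; Rps9 was added after its values were seen; of other lists, up to 3 by p. The fit was tested on simulated data. Alternatives were other scalings, floors, probe-set rules, models and left-out arrays.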

Additional observations from a re-analysis of the deposited data

How the results depend on the processing

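The 0 calls for iTG minus WT and for the interaction held under every alternative run. In the main fit 0.022% of all genes passed in bulge, 0.0275% in hair germ, 0.0495% averaged and 0% for the interaction. With so few calls among all genes, a count of 0 could hardly change, so it says little of how steady these genes are. For hair germ minus bulge in WT, the 1 call became 0 with scaling to a common median, no intensity trend, only the compared arrays, day 20 arrays alone, or the probe sets that list several symbols let in (chosen after seeing the data), and lay between 0 and 1 with an array left out (without WT bulge replicate 1 the call was Rpl14). In iTG the 0 calls became 0 to 1 with an array left out (Rpl14, without either WT bulge array). Averaged, the 5 calls became 3 without the trend, 0 with day 20 arrays alone, 3 with shared probe sets (Rpl3l, Rps19 and Rps4l) and 1 to 5 with an array left out. Dropping the trend or arrays also alters the test for every gene, so a lower count need not be particular to these genes. Scaling to a common median moved the median difference to 0.49 in WT, 0.37 in iTG and 0.43 averaged, moved that of all genes from -0.091 to 0.199, and raised the share of higher calls from 50.2% to 69.8%. With day 20 arrays alone, where each iTG group has 1 array assumed to vary like the others, the iTG median was -0.20 and the interaction median -0.41. With shared probe sets, Rpl39 turned to 0.12 (iTG minus WT in bulge), 0.043 (averaged), 0.13 (hair germ minus bulge in WT), 0.057 (averaged) and -0.16 (interaction), and Rpl14 to -0.046 (iTG minus WT in hair germ). Rpl41 turned to 0.27 (iTG minus WT in hair germ) and 0.39 (interaction) with the mean of its probe sets, and to 0.52 and 0.73 with probe sets free of a cross-hybridisation suffix, where Rpl35 turned to -0.13. Those causes are the probe sets chosen; the others were not tested. Same-numbered samples share sex by signal, and no label gives a shared animal or day. Across all genes, the replicate differences of bulge and hair germ correlated at 0.03 in WT and 0.08 in iTG. Such values cannot exclude shared mice, and the samples were not treated as pairs. The middle Rps9 probe set did fall on the same side in bulge and hair germ samples of the same genotype and number, and the cause was not tested. With a replicate block, which equals a term for sex here, the averaged count was 4, since Rpl3l was lost (adjusted p = 0.0556), and no other call of a named gene changed. Signal over background limits Rps16, Rpl37, Rpl39l and Rpl3l.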
